A study of Mus musculus with 7 samples.

Results

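Clustered binding sites of estrogen receptor beta (ERβ) in mouse ovary are described here, that is, places where 3 or more sites lay close together on the genome. A site was a local maximum of ChIP signal in a 200-bp window that reached a signal of 2, exceeded 4 times the mean of both inputs and 4 times the mean of its own library over 10 kb, and was present in at least 2 of 3 ChIP replicates. Neighbouring sites joined a cluster when the gap between them was at most 25 kb. By this rule 361 of 4251 sites were clustered, in 108 clusters. A further 834 sites formed 417 pairs, and 3056 were single sites with no other site within 25 kb. Because the members were selected on their measured signal, their heights and folds are given as a description and were not tested.

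The samples came from ovaries of young to adult female C57BL/6J mice that express ERβ from the endogenous gene. The study pooled ovaries of several mice for each ChIP replicate and precipitated chromatin with the monoclonal antibody PPZ0506. Files of 3 ERβ ChIP replicates and 2 inputs (sheared chromatin sequenced without the antibody step) were analysed, and the 2 ChIP samples from ERβ-deleted ovaries were not analysed here. Whether the inputs came from separate pools is not stated in the labels, so the spread between them may be technical. Genome means ranged from 0.362 to 0.3697 in signal units across the 5 libraries, and the tracks hold no read counts, so no counting intervals are given and precision rests on the replicates. Tracks of ChIP replicate 1 and Input replicate 1 carry a different form of name from the other 3, and values within each name form are given where they bear on a result.

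ERβ is a ligand-activated nuclear receptor that in the ovary is found mainly in granulosa cells. It binds DNA as a dimer at the estrogen response element (ERE), a palindrome of a pair of inverted GGTCA motifs spaced by 3 bases, written GGTCANNNTGACC. Transcription factors often occupy several elements around the same gene, and such groups of sites can lie in introns or far from any promoter.

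The sequences behind the clusters are shown first for 2 of them. The Greb1 cluster is shown because it held more sites than any other. Greb1 is an estrogen-induced gene studied widely in breast cancer cells. Its 6 sites lay at chr12:16753341-16811180 (GRCm38). Each line gives the best ERE match of the site with 10 bases on either side, 5′ to 3′ on the plus strand, with the 13 bases of the match in capitals.

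Greb1 site 1: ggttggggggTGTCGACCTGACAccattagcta
Greb1 site 2: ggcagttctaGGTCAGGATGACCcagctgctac
Greb1 site 3: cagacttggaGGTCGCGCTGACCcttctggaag
Greb1 site 4: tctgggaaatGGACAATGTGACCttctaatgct
Greb1 site 5: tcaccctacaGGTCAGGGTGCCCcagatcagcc
Greb1 site 6: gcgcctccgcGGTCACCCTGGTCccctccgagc

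Site 2 matched all 10 fixed bases of the ERE. Counted from 1 at the first base in capitals, site 3 differed by A5G, site 4 by T3A and site 5 by A11C. Site 6 had 2 mismatches and site 1 had 3, which is more than the 2 allowed for an ERE here. No pair of sites in this cluster shared an exact run longer than 10 bp, so the 6 sites held no long exact copies of each other. Diverged copies were not looked for.

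The other cluster lay in the immunoglobulin kappa locus at chr6:69226961-69305150. It is shown because its 5 sites had nearly the same sequence, and it was chosen after its values were seen. Each site lay within a different variable-region gene segment of the Igkv4 family, from Igkv4-72 to Igkv4-68. Such segments encode the variable part of antibody light chains and are joined by rearrangement in B cells. The ERE match lay within the annotated coding sequence in all 5 segments, which lie on the minus strand. The lines again show the plus strand with the 13 bases in capitals, and 3 segments without a site are added for comparison.

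Igkv4-72 (site): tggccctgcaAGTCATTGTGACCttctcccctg
Igkv4-71 (site): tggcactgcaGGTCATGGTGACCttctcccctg
Igkv4-70 (site): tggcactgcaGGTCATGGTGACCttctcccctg
Igkv4-69 (site): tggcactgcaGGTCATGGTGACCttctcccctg
Igkv4-68 (site): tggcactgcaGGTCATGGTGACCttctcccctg
Igkv4-53 (no site): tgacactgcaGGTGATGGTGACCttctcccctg
Igkv4-60 (no site): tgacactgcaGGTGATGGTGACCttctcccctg
Igkv4-50 (no site): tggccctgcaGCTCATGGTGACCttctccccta

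Across the 108 clusters, small groups were the rule. There were 82 clusters of 3 sites, 16 of 4, 9 of 5 and 1 of 6. From the first to the last site a cluster spanned 23.0 kb in the median, with quartiles of 16.1 and 33.5 kb, and 4 clusters spanned more than 50 kb. The median gap between neighbours was 9.82 kb, and 127 of 253 gaps (50.2%) were at most 10 kb. At the other end, 18 gaps were at most 1 kb, and 11 clusters would hold fewer than 3 sites if summits within 1 kb were counted once. The shortest cluster, in intron 1 of Gse1, held 3 summits within 0.57 kb (named after its values were seen). Clusters occurred on every autosome, with the most, 12, on chromosome 9, and there was no cluster among the 76 sites on chromosome X.

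**Figure D1:**
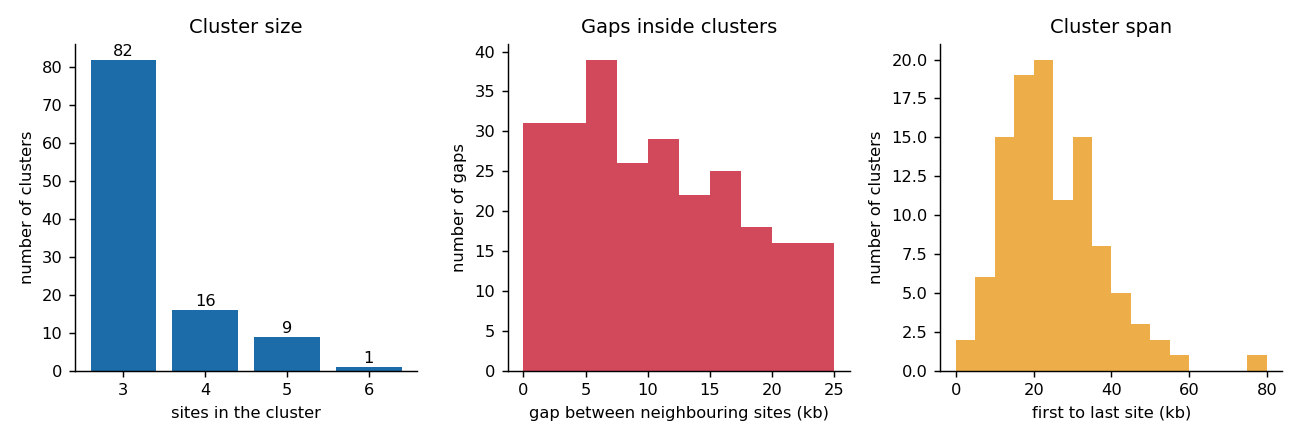
Left, number of clusters (vertical axis) by the number of sites they hold. Middle and right, histograms of the gap between neighbouring sites and of the distance from first to last site, in kb. Most clusters held 3 sites (82 of 108), and the gaps filled the whole range up to the limit of 25 kb.

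The limit of 25 kb fell within a continuous range of gaps. The largest gap inside a cluster was 24.8 kb, between Igkv4-71 and Igkv4-70. The smallest gap that kept sites apart which would otherwise have formed or enlarged a group of 3 or more was 25.01 kb, near Crispld2. Another, near Sh3bgrl2, was 25.05 kb. In all, 7 gaps over 24 kb were inside clusters and 6 gaps of up to 25.85 kb were not. In a library that called it, the lowest 200-bp signal at the centre of a clustered site was 1.66, because the centre of a merged site is the summit of its highest library.

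Every cluster had at least 1 site called in all 3 replicates, and in 35 clusters every site was. Of the 361 clustered sites, 263 (72.9%) were called in all 3 replicates, compared with 66.9% of single sites and 73.1% of sites in pairs. The sites missing from 1 library were mostly missing from ChIP replicate 1: 61 were called only in replicates 2 and 3, 30 only in replicates 1 and 2, and 7 only in replicates 1 and 3. Without ChIP replicate 2, sites shared by both others formed 54 clusters of 174 sites, and without ChIP replicate 3 there were 65 clusters of 211 sites. The mean fold of a cluster over its sites went together between libraries, with r = 0.93, 0.80 and 0.84 on the log2 scale for replicates 1 and 2, 1 and 3, and 2 and 3. These correlations are across 108 clusters that share the same inputs and are descriptive. Averaged over the 3 replicates, the fold over input of a clustered site had a median of 7.40 and ranged from 3.14 to 42.5. The median was 6.98 for sites in pairs and 6.47 for single sites.

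Sites within a cluster were of unequal strength. The strongest site had 2.46 times the fold of the weakest in the median cluster, and from 1.06 to 11.8 times over all clusters. It held a median of 44.6% of the summed fold. The same site was the strongest in all 3 replicates in 76 clusters (70.4%). The extreme case was Gramd1b, which encodes a protein of cholesterol transfer from the plasma membrane. Its first site had folds of 36.5, 46.5 and 44.4 in ChIP replicates 1, 2 and 3, whereas site 3 had 2.54, 2.93 and 5.36. All 3 sites lay in intron 1 of 20, and the strongest held 82.7% of the summed fold.

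The Greb1 cluster was followed site by site. Site 1, in intron 3 of 34, had signals of 9.85, 11.6 and 8.12 in ChIP replicates 1, 2 and 3 and of 0.762 and 0.706 in the inputs. Site 2, with the perfect ERE, had 18.7, 24.2 and 26.1 against 1.53 and 0.930. Site 3 had 23.5, 28.4 and 33.6 against 1.23 and 1.06. Sites 2 to 5 all lay in intron 1. At each the lowest ChIP library stood well above the highest input, which the calling rule largely sets in advance. Site 4 had the lowest signal of these, 6.56, 5.06 and 6.14, with inputs of 0.846 and 0.510. Site 5 had 14.9, 19.99 and 19.2 over inputs of 0.639 and 0.530, and the highest mean fold of the cluster, 30.9 ± 4.65 (SD, n = 3). Site 6 was the weakest, with signals of 2.44, 4.17 and 6.58 over inputs of 1.02 and 1.09. It lay in an exon 0.104 kb downstream of a start site of E2f6, a repressor of the E2F family, and was called in 2 replicates. Site 1 was the only one of the 6 without an ERE, and its fold of 13.4 ± 2.40 was above that of site 4, which had 1 mismatch. The whole 200 bp of site 5, the site with the highest fold, is printed for its surroundings (chr12:16790511-16790710, plus strand, ERE match in capitals).

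Greb1 site 5: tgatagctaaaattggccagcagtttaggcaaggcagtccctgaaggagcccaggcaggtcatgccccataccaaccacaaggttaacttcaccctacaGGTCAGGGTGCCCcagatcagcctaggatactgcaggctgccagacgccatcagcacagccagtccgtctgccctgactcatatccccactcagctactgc

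In the Igkv4 cluster, the site in Igkv4-72 had signals of 8.22, 8.92 and 6.72 in ChIP replicates 1, 2 and 3 and of 0.597 and 0.80 in the inputs. Igkv4-71 had 1.99, 4.42 and 4.37 over inputs of 0.449 and 0.37. Igkv4-70 had 1.77, 3.9971 and 3.36 over 0.247 and 0.220. In both of these segments ChIP replicate 1 was the lowest ChIP library, and it called no site in Igkv4-70. Igkv4-69 had 4.32, 3.63 and 4.52 over 0.260 and 0.270. Igkv4-68 was the strongest, with 6.18, 8.56 and 10.05 over 0.274 and 0.260. All ChIP values lay above both inputs at the 5 sites, which the calling rule largely sets in advance. The annotation has no protein-coding start near them (the nearest, of Rpia, was 1487 to 1565 kb away), so by that count they would appear intergenic.

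**Figure D2:**
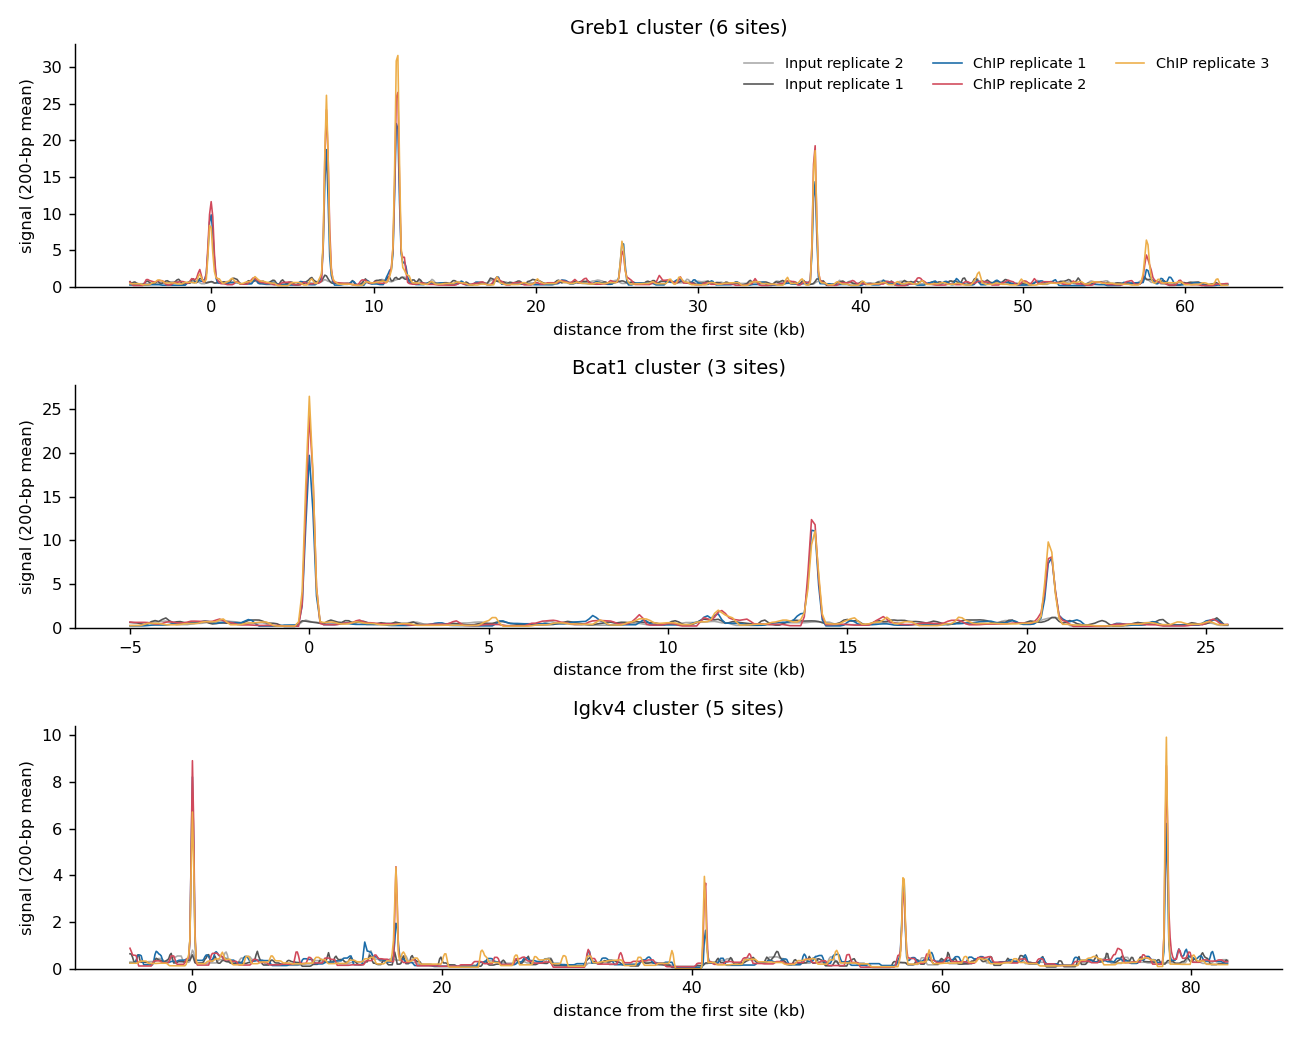
Mean signal in 200-bp windows (vertical axis) against distance in kb from the first site, for the Greb1, Bcat1 and Igkv4 clusters, with 1 line per library. ChIP replicates rise above the inputs at the same narrow positions, and between the sites all 5 lines lie close together.

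The 5 clustered sites belonged to a longer series. The annotation has 33 Igkv4 segments and pseudogenes over 946 kb, all on the minus strand. Of these, 21 contained a site, 19 of the 21 sites were called in all 3 replicates, and 16 lay outside the cluster only because of their spacing (9 in pairs and 7 single). None of the 127 segments of other Igkv families held a site, but 0 of them had an ERE without mismatch and 18 had one with 1 mismatch. All 18 Igkv4 segments whose ERE had no mismatch held a site, against 3 of 10 with 1 mismatch and 0 of 5 with 2. These counts mix different positions. In Igkv4-90 (1 mismatch), Igkv4-80 and Igkv4-61 (2 mismatches each) the best match lay outside the exons. It was 288 to 292 bases from the lower coordinate of those segments, and 216 to 226 bases, within an exon, in the others.

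Signal at the ERE separated the 2 groups of segments widely. Over the 21 segments with a site the mean fold ranged from 4.32 to 22.4 (median 11.3), and over the 12 without one from 0.588 to 2.19 (median 1.03). These ranges follow from the calling rule and are not tested. Of the 33, 7 carried the substitution C4G, and 0 of these held a site, with folds between 0.588 and 1.35. Among them Igkv4-91 also carried C12T and Igkv4-83 also carried C13A. Igkv4-50 carried G2C and had a fold of 1.04 ± 0.312 (SD, n = 3). Igkv4-90, whose best match carried C13T and lay outside its exons, had 0.916 ± 0.213 and no site. In contrast, Igkv4-72 with G1A (fold 11.3 ± 1.59), Igkv4-75 with C13A (10.03 ± 2.68) and Igkv4-57 with C4T (11.7 ± 2.82) held sites. Igkv4-56, which combined C4T with C13T, had 2.19 ± 0.707 and no site.

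Copies this similar limit the reading of single segments. Pairs of sites in the cluster shared exact runs of 28 to 118 bp. The study kept only uniquely mapped reads, so reads that fit several copies equally well would have been dropped. Signal may thus have been lost to a different degree in each segment, which cannot be checked without the reads. Input signal at the EREs of the 33 segments ranged from 0.150 to 0.80, around the genome mean, and was present in every segment.

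**Figure D3:**
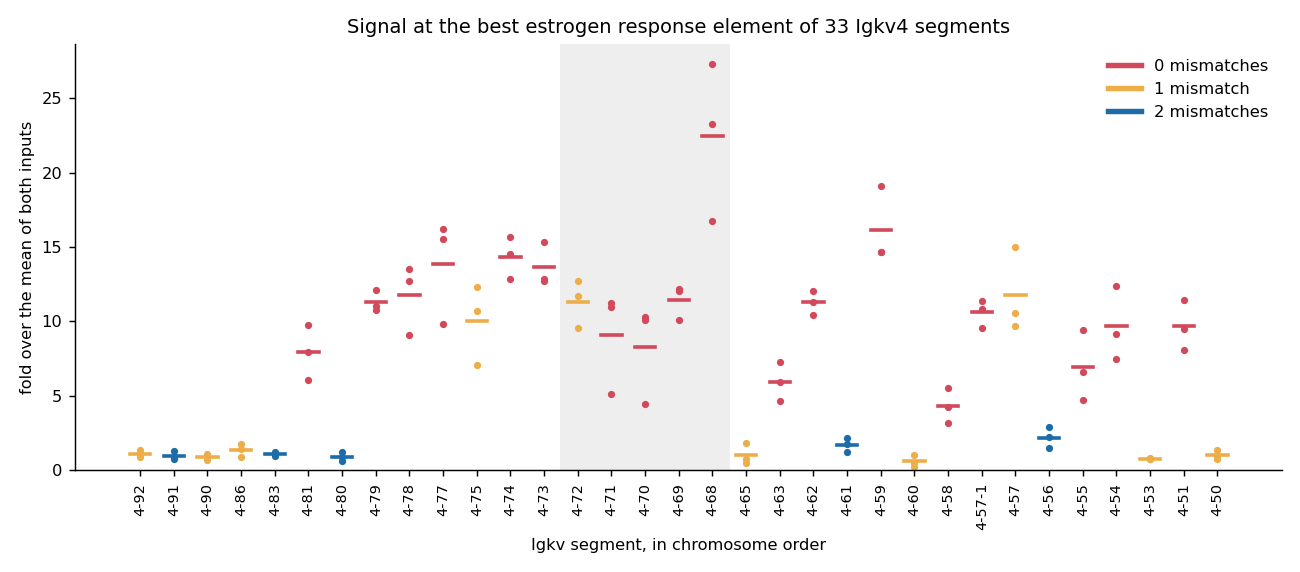
Fold over the mean of both inputs (vertical axis) at the best ERE match of 33 Igkv4 segments in chromosome order. Points are the 3 ChIP replicates, bars their mean, and colours the number of mismatches; the grey band marks the 5 segments of the cluster. All 18 segments with 0 mismatches had mean folds of at least 4.32, and 12 segments with 1 or 2 mismatches stayed at or below 2.19. In Igkv4-90, Igkv4-80 and Igkv4-61 the best match lay outside the exons, at another position than in the other segments.

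Repeated sequence was rare in the other clusters. Of 447 pairs of sites within clusters, 12 shared an exact run of 25 bp or more, and 10 of the 12 were the Igkv4 pairs. The other two were in the clusters of Rab3gap1 (54 bp) and Gse1 (26 bp). At Rab3gap1, sites 2 and 3, 0.49 kb apart, held the same 33 bases around an ERE with the substitution A11G, and soft-masked repeat made up 64.5% and 90% of their 200 bp. These clusters were named after their values were seen.

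Rab3gap1 sites 2 and 3: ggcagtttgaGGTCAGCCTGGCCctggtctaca

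Of the 10 clusters with the highest mean folds, Bcat1 came first. Bcat1 encodes the cytosolic branched-chain aminotransferase. Its 3 sites, at chr6:144695781-144716610, lay 316 to 337 kb from the start site, with cluster means of 16.8, 19.5 and 19.998 in ChIP replicates 1, 2 and 3. Each of the 3 sites was called in all replicates and had an ERE with 2 mismatches. A second cluster of 4 sites near the same gene (chr6:144759241-144782400) had a mean fold of 5.83. St3gal5, Mrps22 and Stat5b were likewise the nearest gene in 2 clusters each.

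The next by mean fold was Pomt1/Uck1 (17.6 ± 4.05, SD, n = 3). Pomt1 encodes a protein O-mannosyltransferase and Uck1 a uridine-cytidine kinase. Its strongest site, in intron 11 of 19 of Pomt1, had folds of 29.0, 38.1 and 32.2. The cluster at Dhrs3/Vps13d had a mean fold of 17.6 ± 2.76, and all 3 sites lay in intron 65 of 69 of Vps13d. Dhrs3 encodes a retinaldehyde reductase, and Vps13d a lipid transfer protein. Gramd1b followed with 17.1 ± 1.91, and Greb1/E2f6 with 16.8 ± 2.06.

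Me3, which encodes a mitochondrial malic enzyme, had 16.8 ± 3.23, with all 3 sites in intron 1 of 13 and an ERE in each. Sites near Mex3c, which encodes an RNA-binding ubiquitin ligase, had 16.7 ± 3.25. They were all upstream of the gene, the nearest by 68.3 kb. Sh3bgrl2, which encodes a small protein of the SH3-binding glutamate-rich family, had 16.1 ± 1.67. Its strongest site, with folds of 27.3, 26.1 and 33.1, had no ERE. At Cog6, which encodes a subunit of a Golgi tethering complex, the mean fold was 15.95 ± 2.18 at sites 136 to 159 kb downstream of the start. Cbfa2t3, which encodes a transcriptional corepressor, had 15.2 ± 2.17 over 4 sites, all within intron 1 of 11.

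**Figure D4:**
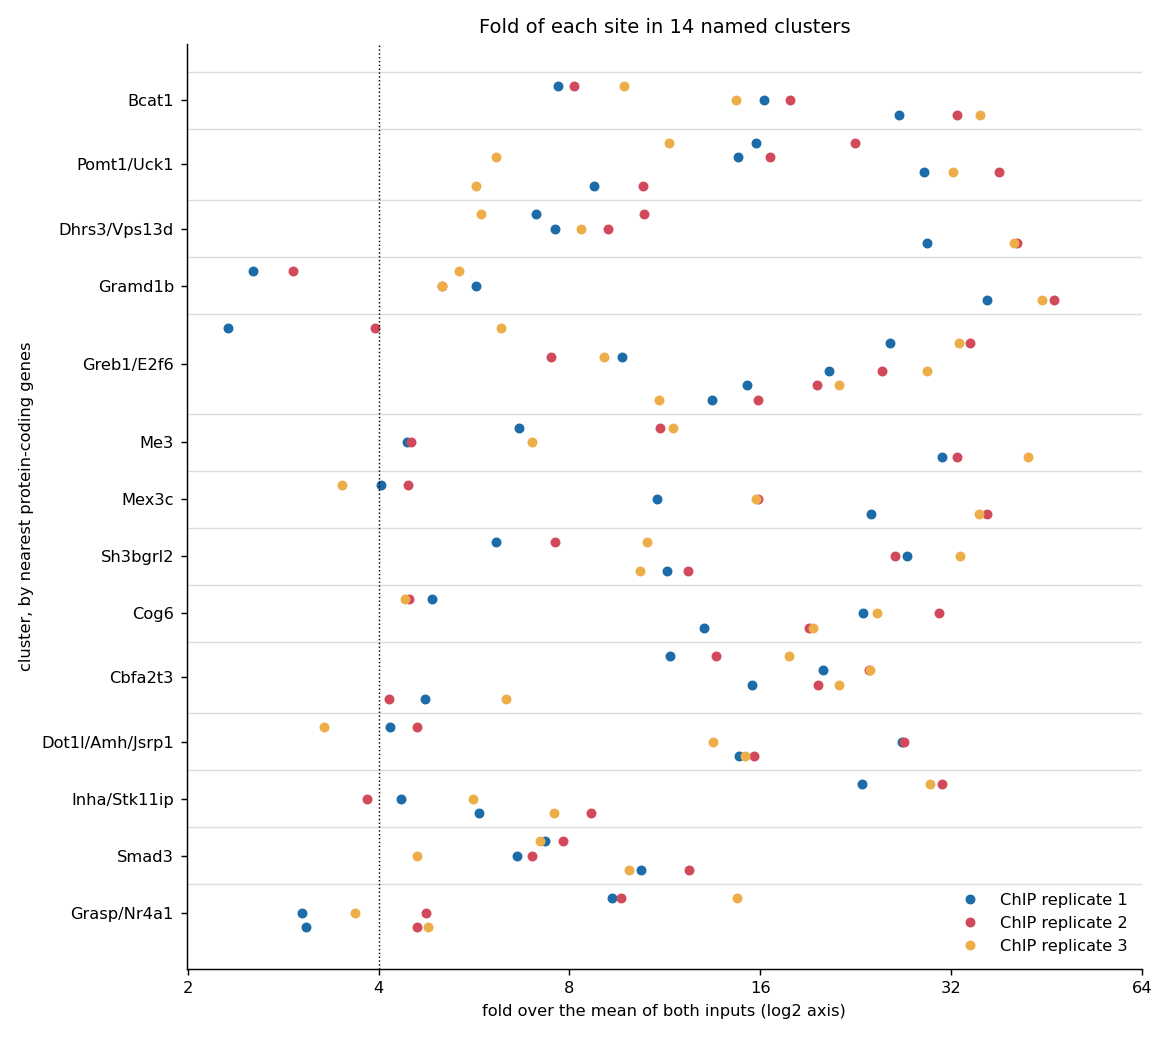
Fold over the mean of both inputs (horizontal log2 axis) at each site of 14 clusters, with 1 row per site and 1 point per ChIP replicate; the dotted line marks 4-fold. Clusters are ordered by mean fold from Grasp/Nr4a1 (6.40) to Bcat1 (18.8), and in Gramd1b 1 site holds 82.7% of the summed fold, whereas in Smad3 the 3 sites lie close together.

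Genes of chosen lists were then looked up among the nearest protein-coding genes. The lists were drawn up with earlier results of these data known, so the counts are a description. In all, 132 of 21728 protein-coding genes (0.608%) were nearest to a clustered site and 2545 (11.7%) to a single site. Of 148 annotated genes on the lists, 6 (4.05%) were nearest to a clustered site and 46 (31.1%) to a single site. Those described here are Amh, Greb1, Inha, Nr4a1 and Smad3. The same 6 genes were found when any gene with a start site within 50 kb was counted.

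By list, 1 of 14 estrogen receptor targets (Greb1) and 2 of 20 granulosa cell genes (Amh and Inha) had a clustered site. So had 2 of 34 nuclear receptors and coregulators (Nr4a1 among them) and 3 of 34 genes of the TGF-beta, BMP and activin pathway (Amh, Inha and Smad3). None of the 13 theca and steroidogenic genes, 7 luteal genes, 12 oocyte markers, 10 endothelial markers, 8 macrophage markers or 10 smooth muscle and stroma markers was nearest to one. Since only 0.608% of all protein-coding genes were, a count of 0 in lists this short does not set these cell types apart. Single sites were nearest to 12 of the 20 granulosa cell genes and to 15 of the 34 pathway genes. They were also nearest to 13 of the 34 nuclear receptors and coregulators and 3 of the 14 estrogen receptor targets. Of the theca and steroidogenic genes they were nearest to 4 of 13, and of the luteal genes to 1 of 7. For oocyte, endothelial, macrophage and smooth muscle and stroma markers the counts were 2 of 12, 1 of 10, 0 of 8 and 2 of 10. The share over all protein-coding genes was 11.7%.

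Inha encodes the inhibin alpha subunit, a granulosa cell hormone that restrains follicle-stimulating hormone. Its cluster with Stk11ip, at chr1:75506961-75519430, had a promoter site 0.016 kb upstream of the start of Inha, with folds of 5.76, 8.65 and 7.55. The strongest site was the third, 2.20 kb upstream of Stk11ip, with 23.2, 31.0 and 29.7. Only that site had an ERE. The promoter site was called in all 3 replicates and its best match had 3 mismatches.

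Amh encodes anti-Müllerian hormone, made by granulosa cells of growing follicles. Its cluster, at chr10:80787531-80810380, also took in Dot1l, a histone methyltransferase gene, and Jsrp1. The site 0.222 kb upstream of Amh had folds of 26.7, 27.0 and 13.5, so ChIP replicate 3 was the low library there. The site in Dot1l, in intron 22 of 27, had folds of 14.8, 15.6 and 15.1 and the single ERE of the cluster. The Jsrp1 site had folds of 4.17, 4.60 and 3.28 and was called in 2 replicates.

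Smad3, the signal transducer of TGF-beta and activin, had sites of closer strength within its introns, with means of 10.9 ± 1.29, 6.06 ± 1.28 and 7.44 ± 0.327. Nr4a1 encodes an orphan nuclear receptor induced by gonadotropins. Its 2 sites lay 13.2 and 6.06 kb upstream, with mean folds of 3.82 ± 0.875 and 11.2 ± 3.01, and the third site lay in an exon of Grasp (4.15 ± 0.938).

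Of the clusters with 5 sites, those besides Igkv4 were nearest to Ccdc3, Nol4l, Fam222a, Etv6, Pknox2, Elovl5/Gcm1, Ptpn23 and Stat5b/Stat5a. Stat5a and Stat5b encode transcription factors of prolactin signalling, and Etv6 encodes an ETS-family repressor. Mean folds in these 8 clusters ran from 6.68 at Ptpn23 to 11.7 at Pknox2. At Etv6 all 5 sites were called in all replicates, within the gene. They were named for their size after the values had been seen.

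Genes around clusters were mostly shared by the sites. In 82 of 108 clusters (75.9%) a single gene was nearest to all sites, in 24 clusters there were 2 genes and in 2 clusters there were 3. All sites lay in the body of the same gene in 37 clusters, 32 clusters lay wholly outside protein-coding genes, and 39 were mixed. Introns held 179 clustered sites (49.6%), 71 of them the first intron. Intergenic sequence held 42.1%, exons 5.26% and promoters (1 kb upstream to 100 bp downstream of a start site) 3.05%. Single sites were distributed as 44.5% intron, 44.9% intergenic, 4.71% exon and 5.89% promoter. The median distance to a protein-coding start was 21.1 kb for clustered and 25.9 kb for single sites, and 16.9% and 24.3%, respectively, had no protein-coding start within 100 kb. Sites in pairs were 48.7% intron, 41.7% intergenic and 5.52% promoter. Their median distance was 21.5 kb, near that of clustered sites, and 21.7% had no start within 100 kb.

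Sequence was not used by the rule, so the next comparison asked whether clustered sites carried the ERE as often as single sites. An ERE with at most 2 mismatches was present within the 200 bp of 253 of 361 clustered sites (70.1%) and 2149 of 3056 single sites (70.3%). In pairs the share was 65.2%. Over the sites called in each replicate, the share was 71.0% ± 0.340 in clustered and 70.8% ± 0.467 in single sites (SD, n = 3). The replicates share most of these sites, so these SDs understate the error. The order of the shares changed with the rule: with gaps of at most 10 kb it was 67.2% against 70.2%, and with a fold of 8 it was 81.8% (44 clustered sites) against 75.9%. In 51170 windows of 200 bp taken every 50 kb along the genome, 6.68% had such a match.

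Other motifs were counted in the same way. An NR5A motif (TCAAGGTCA or CCAAGGTCA, bound by LRH-1 and SF-1) was found in 6.37% of clustered sites, 7.23% of single sites and 0.770% of genome windows. It contains GGTCA and can overlap an ERE. A GATA motif (AGATAA or TGATAA) was found in 26.9%, 28.9% and 24.02%, and a FOXO motif (TGTTTAC) in 4.43%, 4.91% and 2.83%. The AP-1 motif (TGACTCA or TGAGTCA) was found in 16 clustered sites (4.43%), in 7.17% of single sites and in 3.03% of windows. Neighbouring sites of a cluster are not independent, and these shares were not tested. Mean GC content was 52.1% in clustered and 50.8% in single sites, against 41.8% in genome windows. Soft-masked repeats took up 9.11% and 12.2% of the bases.

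Within clusters, EREs were spread over the sites. At least 2 sites had an ERE in 90 clusters, all sites had one in 32, and 2 clusters had none. Sites whose best match had 0, 1 and 2 mismatches had median folds of 8.81, 7.83 and 7.50, respectively. The 89 sites with 3 mismatches had a median of 6.07 and the 19 sites with 4 a median of 5.26. The strongest site had an ERE in 81 of the 108 clusters, and 172 of the other 253 sites (68.0%) had one. In the 74 clusters that held sites of both kinds, those with an ERE had the higher mean log2 fold in 47, with a median difference of 0.38. In single replicates the count was 41, 48 and 50 of 74. These folds come from the selected values and are descriptive.

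Whether clustered sites were stronger than single sites was examined in the ChIP replicate that took no part in the calls. Sites were called in 2 replicates, clusters were formed from them, and the fold was read in the third. In ChIP replicate 1 the median was 6.58 at 268 clustered and 5.84 at 2788 single sites. In replicate 2 it was 9.05 at 174 and 8.22 at 2337 sites, and in replicate 3 it was 8.32 at 211 and 7.80 at 2412 sites. Clustered sites were higher in 3 of 3 replicates, by 0.13 ± 0.04 on the log2 scale (SD, n = 3). By an exact sign-flip permutation test the two-sided p was 0.25, which is the smallest that 3 replicates allow, so the design cannot reach 0.05. The differences within single libraries were 0.17, 0.14 and 0.09, while the level of the medians differed more between libraries (7.98 ± 1.27 at clustered sites, SD, n = 3). The 3 runs share calling libraries and inputs, so the SD of the differences understates the error. With a minimum height of 3 in place of 2 the mean difference fell to 0.0068, and without Input replicate 2 it was 0.055. Both inputs also took part in the calls and were not held out.

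Signal between the sites was partly used by the rule. Each summit had to stand well above the mean of its own ChIP library over 10 kb, which favours low ChIP signal near the sites. Called sites and their surroundings were also left out of the stretches below. A low ratio of ChIP to input there is therefore partly set in advance, and the values are a description. Stretches inside clusters and over 1 kb from any site called in at least 2 replicates added up to 2202 kb. Relative to the genome mean of each library, signal there was 1.18, 1.29 and 1.36 in ChIP replicates 1, 2 and 3 and 1.52 and 1.43 in the inputs. All 3 ChIP libraries were below both inputs, at 0.866 times their mean (exact permutation test, two-sided p = 0.2; 3 against 2 libraries cannot reach 0.05). Within the track-name forms the ratios were 0.781 for replicate 1, and 0.899 and 0.949 for replicates 2 and 3. In the 25 kb on either side of the clusters, also over 1 kb from any such site, the ratio was the same, 0.866. All 5 libraries were above their genome mean both between and around the sites.

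The same stretches were compared as 1-kb windows with limma on log2(signal + 0.5), and the same limit from the selection applies to the counts. Among 2430674 windows of the genome, 2326 (0.0957%) were higher and 65 (0.00267%) lower in ChIP at an adjusted p under 0.05. Of the 1970 windows between clustered sites, 0 were higher and 0 were lower. Windows within 1 kb of a site called in at least 2 replicates were left out here but not from the genome shares. The shares of higher windows, adjusted or unadjusted, are therefore not comparable with those of the genome. Shares of lower windows are not strictly comparable either, because the rule favours low ChIP signal near the sites. At an unadjusted p under 0.05, 18 were higher (0.914%, against 1.90% of all windows) and 217 lower (11.02%, against 3.33%). In the 25 kb around the clusters the shares were nearly the same, 0.867% higher and 10.5% lower. The 3 windows with the smallest p were lower in ChIP. They lay in the clusters of Adcy5 (an adenylate cyclase gene), Pknox2 and Me3, with log2 differences of -0.53, -0.58 and -0.55. At Adcy5 (chr16:35225001-35226000) the ChIP replicates had 0.236, 0.190 and 0.252 and the inputs 0.532 and 0.569, with a limma adjusted p of 0.212.

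**Figure D5:**
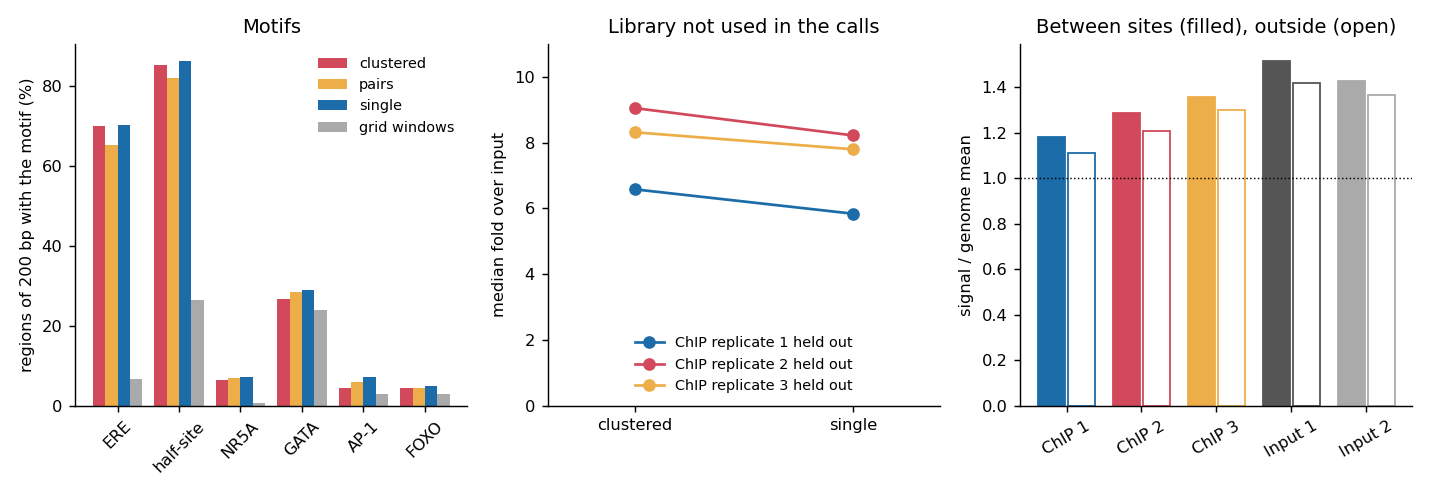
Left, share of 200-bp regions (%) with each motif in clustered sites, pairs, single sites and genome windows. Middle, median fold over input of clustered and single sites in the ChIP replicate held out from the calls. Right, signal relative to the genome mean (dotted line at 1) between sites of clusters (filled bars) and in the 25 kb around them (open bars), by library. ERE shares of clustered and single sites were 70.1% and 70.3%, clustered medians lay slightly above single ones in each library, and ChIP bars were below the input bars.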

How the data were processed

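According to the study, the authors aligned reads with STAR to GRCm38 (mm10), kept uniquely mapped reads and worked with HOMER. The deposited tracks hold signal (coverage) of each library. Their totals, computed here, were close to each other at 928 to 948 M signal times bp. How duplicates were treated is not given in the sources used here. Replicates were not pooled, and groups came from the sample titles.

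Mean signal was computed in steps of 10 bp over the autosomes and X, and sites and clusters were found as described above. The input was set to at least its genome mean. The caller found the planted sites of a made-up track. Start sites and coding sequence came from GENCODE vM21 and sequence from the GRCm38 assembly. Location was given by protein-coding transcripts only. EREs were searched with at most 2 mismatches in 10 fixed bases, other motifs without mismatch, on both strands. Likeness of sites was the longest exact run shared by their 200 bp on either strand.

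All 1-kb windows whose signal averaged 0.1 or more were tested with limma 3.58.1 (lmFit, eBayes with a trend) on log2(signal + 0.5) with Benjamini-Hochberg adjustment over all windows; this scale understates changes of low values. Count models such as edgeR, used by the study, need reads and were not run. Single values were compared by exact permutation over libraries with scipy 1.17.1. Deviations from the group mean over windows had r = 0.036 for libraries of number 1 and -0.011 for number 2. With 2 inputs the value for the other input is the same with opposite sign. These values cannot show whether libraries came from the same pool, and the main fits used no pairing.

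Clusters named were those of 6 or more sites, the 10 with the highest mean fold, and those with a listed gene nearest to a site. Of 149 listed genes, 148 were found in the annotation (not Wisp2). The results of 1 item are not reported here. The members and lists were chosen with earlier results of these data known. Alternatives were other gaps, heights, folds, merging distances and inputs, libraries left out, other pseudocounts and filters, a replicate block and, chosen after seeing the data, the track-name form.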

Additional observations from a re-analysis of the deposited data

How the results depend on the processing

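The number of clusters followed the limits chosen. With gaps of at most 10 kb there were 116 sites in 38 clusters, with gaps of at most 50 kb 834 sites in 232 clusters, with at least 4 sites 115 in 26, with a fold of 8 over input 44 in 13, and with sites in all 3 replicates 158 in 49. Leaving out 1 library gave 174 to 405 sites in 54 to 122 clusters, the fewest without ChIP replicate 2 and, next, without ChIP replicate 3 (211 in 65).

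The ERE shares of clustered and single sites moved beyond the small spread between replicates under most settings. For clustered sites the share was 67.2% (10 kb), 68.1% (50 kb), 67.0% (at least 4 sites), 68.8% (height of 3), 81.8% (fold of 8), 68.2% (no local background), 72.8% (all 3 replicates), 69.3% (wider merging of summits) and 68.6% (input of the same track-name form). At most 1 mismatch gave 34.1% and a wider window gave 73.7%. For single sites it was 71.4% (50 kb), 71.3% (height of 3), 75.9% (fold of 8), 72.1% (all 3 replicates), 69.3% (track-name form), 35.5% (1 mismatch) and 73.2% (wider window). With 1 library left out the shares were 67.9% to 70.7% in clustered and 69.0% to 71.9% in single sites. The cause was not tested.

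The held-out difference was positive in all 12 alternatives, from 0.0068 to 0.28 on the log2 scale. Sites in all 3 replicates leave no library held out, so that alternative gave no value. Between sites, gaps of 50 kb gave 1 higher and 1 lower window, and leaving out 1 library 0 higher and 0 to 2 lower. With the replicate block 12 windows were lower, and 0 were higher. The labels give these libraries only a shared number. The ratio between sites stayed below 1 in all 8 alternatives (0.834 to 0.897). Genes on the lists numbered 1 with gaps of 10 kb (Greb1) and 19 with 50 kb.

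The tracks hold no read counts, and input tracks had unequal resolution (median segments of 269 and 519 bp). Knockout libraries were not analysed here, so signal that does not depend on ERβ could not be measured.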
